A study of Mus musculus with 15 samples.

Results

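The 9 receptors described here are the dopamine receptors *Drd3*, *Drd4* and *Drd5* and the adrenergic receptors *Adra1a*, *Adra1b*, *Adra1d*, *Adra2a*, *Adra2c* and *Adrb1*. They were taken by symbol from the 32657 features of the count tables, and all 9 were found. RNA-seq was carried out on 15 libraries of mouse dentate gyrus (DG), to learn what changes in the ventral DG (vDG) when the serotonin receptor gene *Htr4* is deleted. WT mice were KI198Cre::Rosa26fsTRAP and cKO mice carried Htr4Floxed in addition, on a C57BL/6J background, at an age of 8 to 12 weeks. The groups were vDG IP and the inputs of vDG and dorsal DG (dDG), each with 3 WT and 2 cKO libraries. Every group therefore carried the Cre transgene and the TRAP allele, and no library without them was analysed here. KI198Cre is a bacterial artificial chromosome line in which *Drd3* sequence drives Cre, and the study describes its Cre as mostly confined to the hippocampus and as an incomplete copy of the *Drd3* pattern. In translating ribosome affinity purification (TRAP), ribosomes tagged with EGFPL10a in Cre cells, labelled granule cells and mossy cells, are pulled down (IP) and compared with the whole homogenate (input). Each library came from pooled mice, so the p-values below measure the spread between pools.

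Dopamine and noradrenaline act on G protein-coupled receptors. D1-type receptors (*Drd1*, *Drd5*) couple to stimulatory G proteins and raise cAMP, while D2-type receptors (*Drd2*, *Drd3*, *Drd4*) couple to inhibitory G proteins. Alpha-1 adrenergic receptors (*Adra1a*, *Adra1b*, *Adra1d*) act through Gq and phospholipase C, alpha-2 receptors (*Adra2a*, *Adra2c*) inhibit adenylyl cyclase, and beta receptors (*Adrb1*) stimulate it. The DG receives noradrenaline from the locus coeruleus, and dopamine and noradrenaline are both known to modulate plasticity there.

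On GRCm38 (GENCODE M21) the dopamine receptors lie at chr16:43754026-43822932 (*Drd3*), chr7:141292006-141296464 (*Drd4*) and chr5:38319367-38322518 (*Drd5*). The alpha-1 receptors lie at chr14:66635251-66771168 (*Adra1a*), chr11:43774606-43901210 (*Adra1b*) and chr2:131545850-131562283 (*Adra1d*). *Adra2a* lies at chr19:54044151-54048982, *Adra2c* at chr5:35278319-35281763 and *Adrb1* at chr19:56722199-56733113. The annotated exons of *Drd5*, *Adra2a* and *Adra2c* form 1 block each. The antisense genes *Gm26560* and *Gm14285* overlap *Drd5* and *Adra1d*, and without strand their reads cannot be told apart from those of the receptors. The microRNA gene *Gm25996* lies on the same strand within *Drd3*.

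RefSeq promoter windows (GRCm38.p6) were found for 7 of the 9 genes. The 2 sequences below are shown because *Drd3* is the driver gene of the Cre line and *Adrb1* is the next most abundant receptor after *Adra1d* in vDG. Capitals mark CG dinucleotides, which read the same on either strand, and each sequence is given on the plus strand, on which both genes lie.
*Drd3* (chr16:43761971-43762207): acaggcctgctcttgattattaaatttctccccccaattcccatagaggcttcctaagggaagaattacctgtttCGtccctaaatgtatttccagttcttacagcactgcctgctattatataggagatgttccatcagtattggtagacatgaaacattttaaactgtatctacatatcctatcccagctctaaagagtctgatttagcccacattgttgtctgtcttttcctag
*Adrb1* (chr19:56721867-56722116): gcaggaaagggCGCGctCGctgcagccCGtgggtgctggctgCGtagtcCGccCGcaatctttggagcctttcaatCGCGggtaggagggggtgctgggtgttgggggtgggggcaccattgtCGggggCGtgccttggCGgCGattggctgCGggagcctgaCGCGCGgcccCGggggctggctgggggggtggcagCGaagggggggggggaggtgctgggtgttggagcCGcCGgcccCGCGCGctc
The 250 bases before the RefSeq start held 1 CG for *Drd3* and 24 for *Adrb1*. Among 32851 promoter windows of the same length the median was 6 CG, and 7.87% of the windows held fewer than *Drd3* and 88% fewer than *Adrb1*. The *Drd3* window lies within the GENCODE gene, which starts further upstream, and its last 13 bases were left out because they fall in an annotated exon.

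Total counts per library ran from 19039295 to 30451430. Region markers separated the dissections, as the ventral marker *Trhr* was at 14.7 to 31.5 CPM (counts per 1000000 after TMM scaling of the libraries) in all vDG libraries and at 0.118 to 0.718 CPM in all dDG libraries. The dorsal marker *Lct* was at 128 to 181 CPM in dDG and still at 30 to 87.1 CPM in the vDG libraries. Granule cell markers rose in the IP (4 of 7 in WT and 7 of 7 in cKO), and all 8 astrocyte markers fell in the IP of either genotype. *Htr4* counts over the whole gene do not check the deletion, since only exon 5 is removed. They were at 13.6 CPM or more in every vDG IP library, with means of 15.2 CPM in WT and 28.2 CPM in cKO. The study also reports higher *Htr4* in cKO TRAP RNA. In the inputs the WT and cKO means were 15.6 and 28.4 CPM for vDG and 29.3 and 49.2 CPM for dDG.

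*Adra1d* was the most abundant of the 9 receptors in every group, and *Drd4* and *Adra1b* the least. Levels of different genes are compared here only as CPM per kb of annotated exon. In WT vDG IP the order was *Adra1d* at 26.8 ± 2.35 CPM per kb (SD, n = 3), *Adrb1* at 3.95 ± 0.375, *Drd5* at 2.41 ± 0.495, *Adra2c* at 1.65 ± 0.218 and *Adra2a* at 0.799 ± 0.156 CPM per kb. *Drd3* followed at 0.585 ± 0.227, *Adra1a* at 0.247 ± 0.0584 and *Adra1b* at 0.0592 ± 0.0358 CPM per kb, with *Drd4* last. Only *Adra2a* and *Drd3* overlapped with their neighbour there. In WT vDG input the same 4 genes led the order without overlap, and *Adra2a*, *Adra1a* and *Drd3* overlapped in turn. In WT dDG input *Drd5* came second at 4.57 ± 0.882 CPM per kb, overlapping *Adrb1* at 3.2 ± 0.802, which overlapped *Adra2c* at 2.7 ± 0.289 CPM per kb. *Drd3* came next there at 1.42 ± 0.331 CPM per kb, above *Adra1a* at 0.586 ± 0.0699 and *Adra2a* at 0.337 ± 0.0362 CPM per kb without overlap. In the cKO groups *Adra1d* also led without overlap, at 21.5 ± 0.342 (IP), 12.9 ± 0.763 (vDG input) and 10 ± 0.899 CPM per kb (dDG input, SD, n = 2 each). The place of *Adra1a* depends on its length, since its exons span 8728 bases in union and 4282 bases in the longest transcript. All exon lengths came from GENCODE M21 and were not compared with the annotation on which the authors counted reads.

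**Figure D1:**
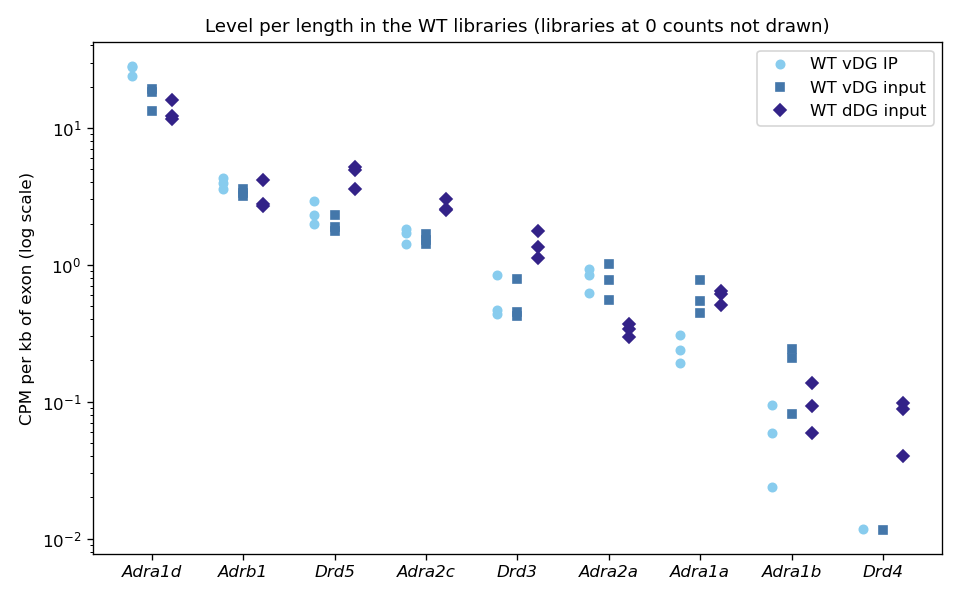
Level of each receptor in CPM per kb of exon (log axis) in each WT library, with circles for vDG IP, squares for vDG input and diamonds for dDG input. *Adra1d* lies above all other receptors in every library, and *Drd3* and *Drd5* lie higher in the dDG than in the vDG libraries.

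Measurability differed widely among the 9 genes. *Drd4*, a D2-type receptor, was too low to measure in vDG, where no library held more than 3 counts, and it passed the count filter in none of the comparisons. The WT vDG IP and WT vDG input libraries together held 1 *Drd4* count per group, and the cKO vDG IP and input held 3 and 2. A total of 3 counts over the WT vDG IP libraries would correspond to 0.04 CPM. In WT dDG input *Drd4* was at 3, 6 and 10 counts and in cKO dDG input at 5 and 5, so the count of every dDG library was at or above that of the highest vDG library. *Adra1b*, an alpha-1 receptor, was at 1 and 3 counts in cKO vDG IP and is too low to measure there. It was at 2, 5 and 8 counts in WT vDG IP, at 8, 19 and 21 in WT vDG input, at 5 and 23 in cKO vDG input, at 4, 7 and 14 in WT dDG input and at 4 and 12 in cKO dDG input. *Adra1b* failed the filter in the IP against input comparisons and in cKO against WT in vDG IP, though not in the interactions, and its libraries in each other group spread over more than a doubling. *Drd3*, *Drd5* and the remaining 5 adrenergic receptors were tested in every comparison.

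*Drd3*, the driver gene of the Cre line, was low but present. Its counts were 20, 19 and 36 in WT vDG IP, 36, 21 and 20 in WT vDG input, 3 and 23 in cKO vDG IP and 24 and 22 in cKO vDG input. In dDG input they were 68, 39 and 70 in WT and 47 and 52 in cKO. The IP and input libraries thus covered the same range in WT, and the *Drd3* difference between them was within its standard error in either genotype. The counts cover whole *Drd3*, and reads from the Cre transgene and from the endogenous gene were not separated here.

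**Figure D2:**
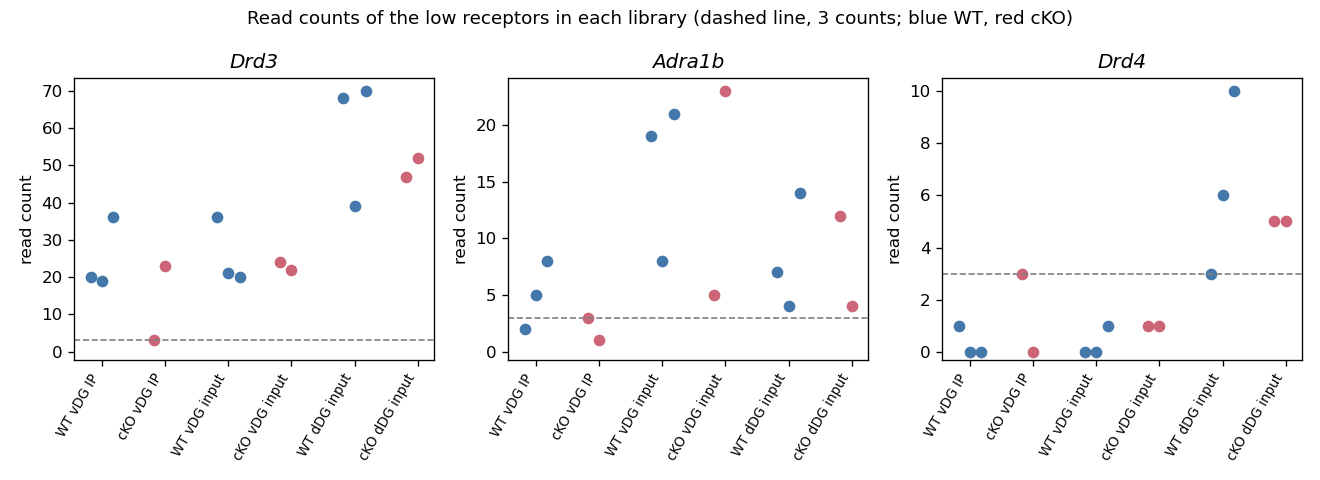
Read counts of *Drd3*, *Adra1b* and *Drd4* in each library, grouped by genotype, region and fraction, with a dashed line at 3 counts. *Drd4* is at or below 3 counts in all vDG libraries, and *Drd3* is highest in dDG input, with 1 cKO vDG IP library at 3 counts.

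The comparison of vDG with dDG asked how the receptors differ along the dorsoventral axis. A call here is a Benjamini-Hochberg adjusted p (FDR) under 0.05 in the two-sided quasi-likelihood test of edgeR over all genes. In WT input 1 of 8 receptors tested was higher and 3 were lower in vDG. Of all 15412 genes tested, 9.26% were higher and 6.09% lower. In cKO input 2 of 8 were lower and 0 higher, where 8.56% of all genes were higher and 8.47% lower. The median log2 fold change of the 8 was 0.06 in WT and 0.01 in cKO, against -0.01 and 0.01 over all genes.

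The dopamine receptors *Drd5* and *Drd3* were lower in vDG in either genotype. *Drd5* was at 6, 7.25 and 5.57 CPM in WT vDG input and at 15.5, 16.4 and 11.2 CPM in WT dDG input. In cKO it was at 4.34 and 5.89 CPM in vDG and at 9.45 and 9.83 CPM in dDG. The regions did not overlap in either genotype, and *Drd5* fell by 1.18 on the log2 scale in WT (SE 0.18, FDR = 0.000249) and fell by 0.92 among cKO libraries (SE 0.21, FDR = 0.00399). *Drd3* was at 1.34, 0.722 and 0.78 CPM in WT vDG input against 3.05, 1.94 and 2.3 CPM in WT dDG input. In cKO it was at 0.922 and 0.81 CPM in vDG against 1.85 and 2.42 CPM in dDG. Again no library of one region reached the other, and *Drd3* fell by 1.34 in WT (SE 0.37, FDR = 0.0195) and by 1.31 among cKO libraries (SE 0.41, FDR = 0.0327). The *Drd3* call was lost when any of 3 single WT libraries was left out, with a highest FDR of 0.0936, and in cKO with DESeq2 (FDR = 0.0862), with all groups in one fit (FDR = 0.165) or when any of 3 single libraries was left out (highest FDR 0.321). *Drd5* stayed below its threshold under every alternative run.

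The alpha-2 receptors moved in opposite directions in WT. *Adra2a* was higher in vDG, at 2.68, 3.71 and 4.87 CPM against 1.79, 1.64 and 1.45 CPM in dDG, a log2 fold change of 1.22 (SE 0.29, FDR = 0.00771). Without WT vDG input replicate 3 it was 1 with an FDR of 0.0688. In cKO *Adra2a* was at 3 and 2.87 CPM in vDG and at 1.85 and 1.3 CPM in dDG, also without overlap, and its log2 fold change of 0.87 (SE 0.33) missed the threshold at an FDR of 0.0763. *Adra2c* was lower in vDG, at 5.25, 5.74 and 4.87 CPM against 10.5, 8.75 and 8.71 CPM in dDG, and fell by 0.80 on the log2 scale (SE 0.18, FDR = 0.00486). In cKO *Adra2c* was at 6.53 and 5.12 CPM in vDG and at 5.24 and 5.82 CPM in dDG, so the regions overlapped and the difference was within its standard error. The test of this difference between genotypes, the genotype by region interaction, was 0.86 for *Adra2c* (SE 0.27) and did not pass over all genes (FDR = 0.206, edgeR).

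Among the other receptors *Adra1d* was at 25.1, 35 and 36.6 CPM in WT vDG input and at 23.2, 22.1 and 30.7 CPM in WT dDG input, which overlapped (log2 fold change 0.36, SE 0.16, FDR = 0.162). In cKO it was at 23.5 and 25.6 CPM against 17.8 and 20.2 CPM without overlap (0.36, SE 0.15, FDR = 0.0987). Its FDR was 0.043 without WT vDG input replicate 1 in WT, and 0.0463 with library size alone in cKO. *Adrb1* and *Adra1a* overlapped between regions in either genotype. *Drd4*, untested for low counts, did not overlap between regions in either genotype, and with no count filter its WT difference had an FDR of 0.048 and its cKO difference an FDR of 0.414.

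Cell type markers moved with region as well. The summed level of the 7 granule cell markers was 1160 to 1360 CPM in WT vDG input and 1770 to 1800 CPM in WT dDG input, with 4 of 7 lower in vDG (6 of 7 in cKO). The summed mossy cell markers were at 77.7 to 100 CPM in WT vDG input and at 13.1 to 16.1 CPM in WT dDG input, but of 5 tested 2 were higher and 1 lower in vDG in either genotype. The interneuron markers were at 920 to 1200 CPM against 637 to 706 CPM, with 6 of 12 higher in WT vDG and 3 of 12 in cKO. The CA pyramidal cell markers were at 101 to 107 CPM against 67.4 to 79.1 CPM in WT, with 4 of 8 higher and 1 lower in vDG (3 and 1 in cKO). The oligodendrocyte markers were at 360 to 448 CPM against 488 to 518 CPM in WT, with 4 of 7 lower in vDG (2 of 7 in cKO). No marker of these lists was at 0 in the inputs. The choroid plexus markers reached 97.1 and 149 CPM in WT dDG replicates 2 and 3, against 17.9 to 35.7 CPM in all other libraries. Their part in the regional differences was not tested. In whole tissue, fewer cells of a type and less RNA per cell cannot be told apart.

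**Figure D3:**
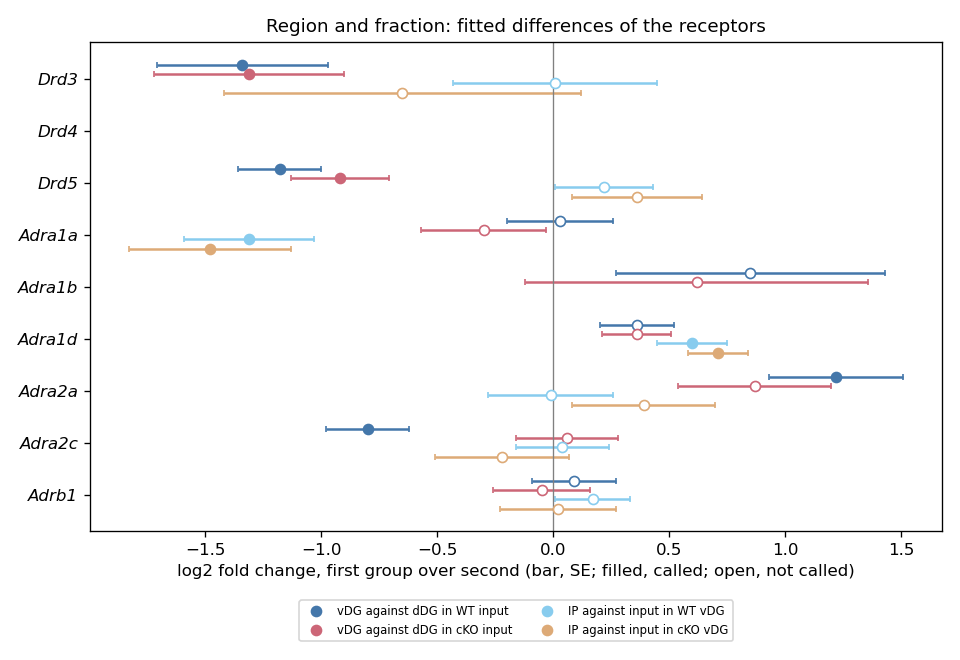
Log2 fold change with SE (horizontal axis) of each receptor tested for vDG over dDG and for IP over input, in WT and cKO, with filled points for called differences. *Drd5* and *Drd3* lie below 0 for region in either genotype, and for fraction *Adra1a* lies below 0 and *Adra1d* above 0 in either genotype.

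The comparison of IP with input asked which receptor transcripts are enriched on the ribosomes of KI198Cre cells. *Adra1d* was higher and *Adra1a* lower in the IP in either genotype, and the other 5 receptors tested did not pass. In WT 1 of 7 receptors was higher and 1 lower, where 7.73% of all genes tested were higher and 16.1% lower. In cKO 1 of 7 was higher and 1 lower, where 11.8% of all genes were higher and 15.7% lower. The median log2 fold change of the 7 was 0.04 in WT and 0.02 in cKO, against 0 and -0.03 over all genes.

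*Adra1d* was at 45.8, 54.2 and 52.6 CPM in WT vDG IP and at 25.1, 35 and 36.6 CPM in WT vDG input. In cKO it was at 40.3 and 41.2 CPM in the IP and at 23.5 and 25.6 CPM in the input. All IP libraries were above all input libraries, and the WT log2 fold change was 0.60 (SE 0.15, FDR = 0.0105, fold 1.51) and that of cKO 0.71 (SE 0.13, FDR = 0.00214, fold 1.63). The WT call was just lost without WT vDG IP replicate 2 (FDR = 0.0522) or without WT vDG input replicate 1 (FDR = 0.0514).

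*Adra1a* was at 1.68, 2.7 and 2.09 CPM in WT vDG IP and at 3.91, 6.81 and 4.72 CPM in WT vDG input. In cKO it was at 2.2 and 1.6 CPM in the IP and at 6.22 and 4.16 CPM in the input, again without overlap. It fell by 1.31 on the log2 scale in WT (SE 0.28, FDR = 0.00349) and by 1.48 in cKO (SE 0.35, FDR = 0.00855). The cKO call was lost without cKO vDG input replicate 1 (log2 fold change -1.15, FDR = 0.16). The other alpha-1 receptor, *Adra1b*, had 15 counts over the WT vDG IP libraries and 48 over the WT vDG inputs, and 4 and 28 in cKO, and passed in no alternative in which it could be tested.

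Markers of cells outside the Cre population also fell in the IP. Interneuron markers were at 639 to 917 CPM in WT vDG IP against 920 to 1200 CPM in WT vDG input, with 9 of 12 lower, and 8 of 12 were lower and 1 higher in cKO. The astrocyte sum was 1210 to 1840 CPM against 4260 to 4870 CPM in WT, with none of its markers at 0. The sum of the 3 oligodendrocyte precursor markers was 17 to 21.8 CPM against 42.8 to 50.7 CPM in WT, with 2 of 3 lower, and in cKO 2 were lower and 1 was higher. Among markers of the labelled mossy cells, 1 of 5 tested was lower in the WT IP and 0 in the cKO IP. Their median log2 fold changes were -0.71 and -0.86. The CA pyramidal cell markers were at 102 to 119 CPM in WT vDG IP against 101 to 107 CPM in WT vDG input, with 2 of 8 lower (1 of 8 in cKO). The part of any of these cells in the *Adra1a* difference was not tested.

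For *Drd5* the IP libraries were at 7.29, 9.28 and 6.2 CPM in WT and at 5.77 and 7.61 CPM in cKO. They overlapped with the inputs in either genotype (log2 fold change 0.22, SE 0.21, FDR = 0.496 in WT and 0.36, SE 0.28, FDR = 0.371 in cKO). *Adrb1* in WT vDG IP was at 13.3, 12.1 and 14.7 CPM and overlapped with the input at 12.2, 10.7 and 11.3 CPM (0.17, SE 0.16, FDR = 0.482). *Adra2a* in cKO did not overlap, at 3.99 and 3.83 CPM in the IP and 3 and 2.87 CPM in the input, but its difference of 0.39 (SE 0.31) had an FDR of 0.403. The test of whether fraction differences changed with genotype called 0 of 8 receptors and 0% of all genes (edgeR), with 0 receptors and 3.09% of all genes at an unadjusted p under 0.05 and 0 receptors called by DESeq2.

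The comparison of cKO with WT asked which receptors change when *Htr4* is deleted. None of the receptors passed in any of the 3 tissues. Those lower in cKO without overlap between genotypes were 2 of 7 in vDG IP, 1 of 8 in vDG input and 3 of 8 in dDG input, where the same held for 18.3%, 17.1% and 15.5% of all genes tested. In vDG IP, at the threshold of 0.1 that the study used there, 0 of 7 were called and 1 had an unadjusted p under 0.05. Of all genes 0.42% were called and 11.7% had an unadjusted p under 0.05. In vDG input 0 of 8 were called and 2 had an unadjusted p under 0.05, where the shares of all genes were 2.44% and 14.8%. In dDG input 0 of 8 were called and 3 had an unadjusted p under 0.05, where the shares of all genes were 0.0325% and 12.2%. DESeq2 also called 0 receptors in each of the 3 tissues. The median log2 fold change of the receptors was -0.15 in vDG IP, -0.25 in vDG input and -0.24 in dDG input, against 0, 0.01 and -0.02 over all genes.

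**Figure D4:**
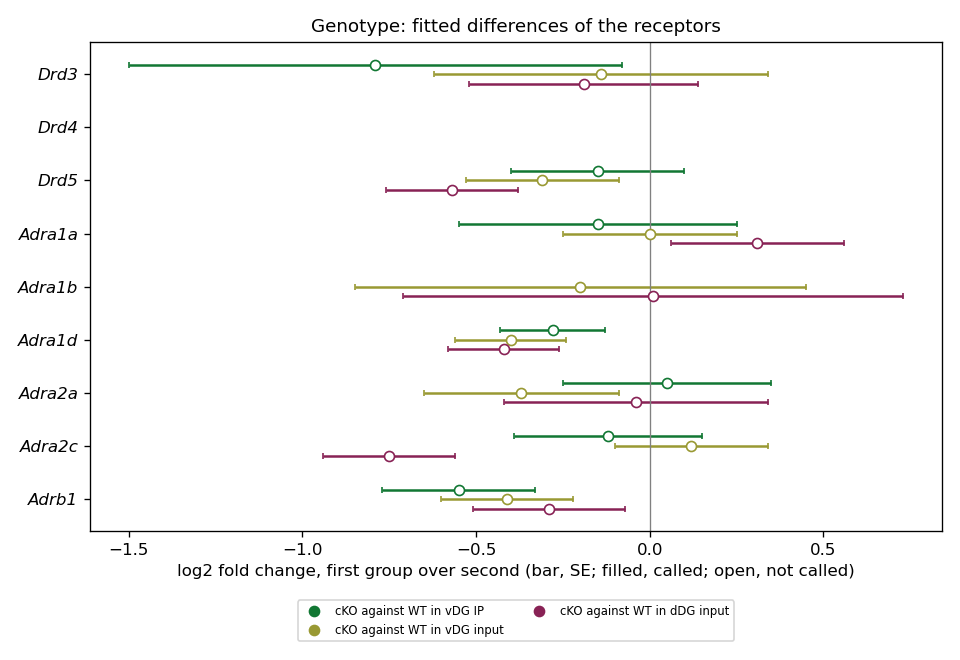
Log2 fold change with SE (horizontal axis) of each receptor tested for cKO over WT in the vDG IP and in the inputs of vDG and dDG. All points are open, as none of the differences was called.

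*Adrb1* was at 7.32 and 10.4 CPM in cKO vDG IP, below all WT vDG IP libraries (13.3, 12.1 and 14.7 CPM). Its log2 fold change was -0.55 (SE 0.22, FDR = 0.353, edgeR). In vDG input it was at 7.53 and 9.72 CPM in cKO, also below all WT libraries (12.2, 10.7 and 11.3 CPM), at -0.41 (SE 0.19, FDR = 0.299, edgeR). In dDG input the cKO libraries at 7.64 and 10.2 CPM overlapped with WT at 14, 9.09 and 9.43 CPM, at -0.29 (SE 0.22, FDR = 0.648). *Adra1d* had differences of -0.28 in vDG IP (SE 0.15, FDR = 0.464), -0.40 in vDG input (SE 0.16, FDR = 0.224) and -0.42 in dDG input (SE 0.16, FDR = 0.311). Its genotypes did not overlap in vDG IP and dDG input, and they overlapped in vDG input through WT replicate 1, without which its FDR was 0.0302 and its log2 fold change -0.55. The comparisons in the 3 tissues share no library. By the methods, however, input RNA was taken from the homogenate before the IP, so the vDG IP and vDG input values are not independent of each other.

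In dDG input *Adra2c* was at 5.24 and 5.82 CPM in cKO and at 10.5, 8.75 and 8.71 CPM in WT, without overlap, a log2 fold change of -0.75 (SE 0.19). Its FDR by edgeR was 0.167, and 0.0286 with no count filter. *Drd5* in dDG input was at 9.45 and 9.83 CPM in cKO and at 15.5, 16.4 and 11.2 CPM in WT, without overlap, at -0.57 (SE 0.19, FDR = 0.226, edgeR). The same WT dDG libraries entered the comparison of vDG with dDG, so these values and the regional ones are not independent. For *Drd3* the vDG IP libraries gave -0.79 (SE 0.71, FDR = 0.701, edgeR), with the genotypes overlapping and 1 cKO library at 3 counts. That value was -0.02 without cKO vDG IP replicate 1, which held the 3 counts, -2.75 without cKO vDG IP replicate 2 and -0.45 without WT vDG IP replicate 3. The genotype by region interaction called 0 of 8 receptors and 0% of all genes (edgeR), with 1 receptor, *Adra2c*, and 12.3% of all genes at an unadjusted p under 0.05 and 0 receptors called by DESeq2. Beside these values, astrocyte markers were at 2330 to 2630 CPM in cKO vDG input against 4260 to 4870 CPM in WT, with 4 of 8 lower, and the choroid plexus markers were at 17.9 to 22.9 CPM in cKO dDG input against 31.8 to 149 CPM in WT. Their part in the receptor differences was not tested.

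**Figure D5:**
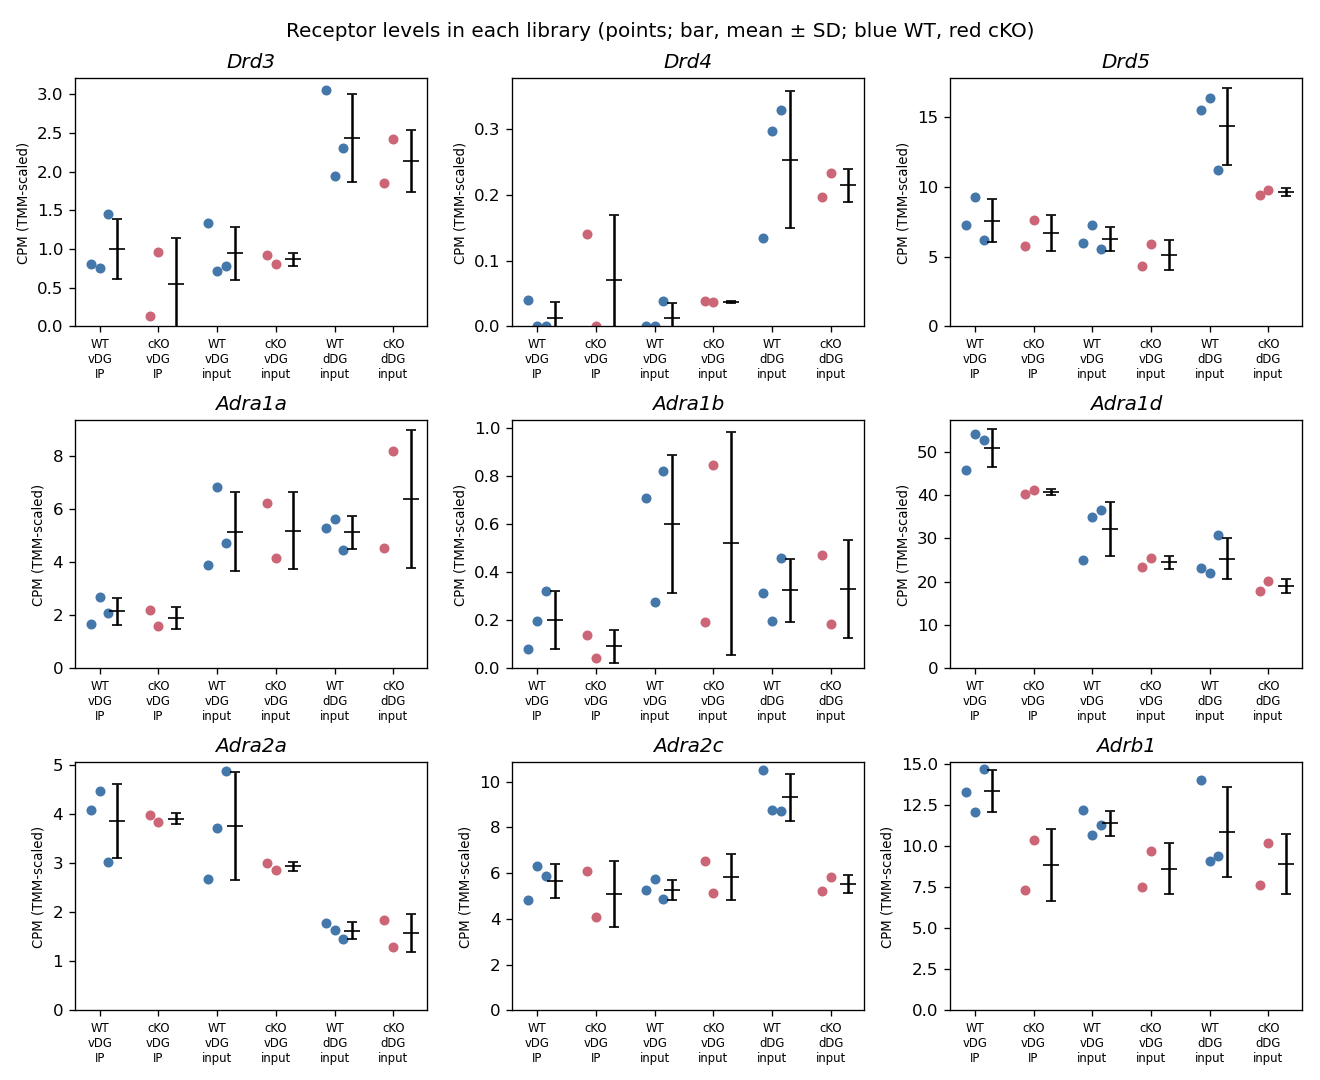
Level of each of the 9 receptors in CPM (vertical axis, from 0) in each library, with points for libraries, bars for mean ± SD, blue for WT and red for cKO. *Drd3*, *Drd4* and *Drd5* are highest in dDG input, *Adra1d* is highest in WT vDG IP, and *Adra1a* is lowest in vDG IP.

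Among other dopamine and adrenergic receptors, *Adra2b* and *Adrb3* held at most 3 and 5 counts in any library. *Drd1*, the other D1-type receptor, was lower in vDG than in dDG, with means of 2.44 against 14.7 CPM in WT (log2 fold change -2.57, SE 0.29, FDR = 7.91e-06) and 2.84 against 18.8 CPM in cKO (-2.73, SE 0.22, FDR = 3.11e-08). *Drd2*, which marks mossy cells, passed in none of the 7 comparisons.

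Of the 13 genes of catecholamine synthesis, storage and clearance, 7 or 8 were tested in each comparison. *Dbh*, which converts dopamine to noradrenaline, was lower in vDG in the WT libraries (-2.04, SE 0.33, FDR = 0.000369) and in those of cKO (-2.06, SE 0.38, FDR = 0.000636). Its levels were low, at means of 0.891 CPM in vDG and 3.72 CPM in dDG in WT, and 0.895 and 3.74 CPM in cKO. *Th*, of the same list, was not tested, at means of 0.0124 CPM in WT vDG input and 0.0481 CPM in WT dDG input. *Maob*, which degrades monoamines and is abundant in astrocytes, fell in the IP by 1.99 in WT (SE 0.18, FDR = 2.29e-06) and by 1.55 in cKO (SE 0.28, FDR = 0.00175). *Maob* was also lower in cKO vDG input (-0.67, SE 0.18, FDR = 0.0435), beside the astrocyte markers given above, and higher in WT vDG than in dDG (0.46, SE 0.15, FDR = 0.0419). In cKO that regional difference was -0.28 (FDR = 0.319, not called), and the genotype by region interaction of *Maob* was not called (-0.74, SE 0.22, FDR = 0.193, edgeR). The other called members were the dopamine transporter gene *Slc6a3*, lower in the cKO IP (-2.59, SE 0.87, FDR = 0.0439), and the monoamine transporter gene *Slc29a4*, lower in WT vDG than in dDG (-0.61, SE 0.15, FDR = 0.00997). The *Slc6a3* call rests on low levels, with means of 0.11 CPM in cKO vDG IP and 0.681 CPM in cKO vDG input. In WT its IP difference was -0.28 (FDR = 0.751, not called), and its genotype by fraction interaction was not called (-2.28, SE 1.07). *Slc29a4* was at -0.13 between regions in cKO (FDR = 0.564, not called).

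Downstream of the receptors, *Plcb1*, one of the phospholipase C beta enzymes that Gq activates, was higher in the IP by 0.58 in WT (SE 0.15, FDR = 0.0105) and by 0.84 in cKO (SE 0.13, FDR = 0.000582). Between genotypes it was lower in vDG input, at means of 189 CPM in cKO and 286 CPM in WT (-0.61, SE 0.14, FDR = 0.0169). It was not called in vDG IP (-0.34, FDR = 0.438) or in dDG input (0.23, FDR = 0.493). Its genotype by region interaction was not called either (-0.86, SE 0.20, FDR = 0.144, edgeR). Of the 4 phospholipase C beta genes 1 was called in vDG input, where 2.44% of all genes were, and *Plcb3* was at -0.85 there (FDR = 0.0687, not called). *Plcb3* and *Plcb4* fell in the WT IP by 1.42 (SE 0.23, FDR = 0.000544) and by 0.90 (SE 0.21, FDR = 0.00707), and in the cKO IP they were at -1.09 (FDR = 0.0632) and -0.39 (FDR = 0.214), neither called. Between regions *Plcb4* was higher in WT vDG (0.90, FDR = 0.00335) and *Plcb1* lower in cKO vDG (-0.83, FDR = 6.92e-05). In the other genotype neither was called, with *Plcb4* at 0.04 in cKO (FDR = 0.92) and *Plcb1* at 0.03 in WT (FDR = 0.922). The genotype by region interaction did not call *Plcb4* (-0.86, SE 0.27, FDR = 0.203, edgeR). Of the 7 receptor kinases and arrestins, *Adrbk1* (Grk2) rose in the IP and *Adrbk2* (Grk3) fell in either genotype. Their log2 fold changes were 0.49 and -0.40 in WT and 0.57 and -0.52 in cKO. *Adrbk2* was also higher in vDG than in dDG in either genotype (0.71 in WT and 0.42 in cKO), as were *Adrbk1* and *Grk6* in cKO (0.40 and 0.61). In WT *Adrbk1* and *Grk6* were at 0 and -0.03 between regions, neither called. Of 9 G protein alpha subunits tested, 4 were higher and 0 lower in WT vDG than in dDG, and 4 were higher and 1 lower in cKO. Over all genes 9.26% were higher and 6.09% lower in WT, and 8.56% and 8.47% in cKO. Those higher in either genotype were *Gnai1*, *Gnao1* and *Gnaz*, all of the inhibitory class, at 0.74, 0.60 and 0.57 in WT and 0.51, 0.36 and 0.59 in cKO. The stimulatory *Gnas* was higher in WT (0.52), and in cKO *Gnai2* was higher (0.44) and *Gnal* lower (-0.31). In the IP *Gnai2* was lower in either genotype (-0.45 in WT and -0.36 in cKO), and *Gnas* and *Gnaz* were higher in cKO (0.37 and 0.50). Of the 6 scaffolds and modulators 1 was higher and 2 lower in the IP of either genotype, namely *Caly*, a D1-receptor interacting protein (0.46 and 0.43 in WT and cKO), *Ppp1r1b* (DARPP-32, a target of dopamine signalling, -0.72 and -0.55) and *Rgs9*, which shortens G protein signals (-1.09 and -0.82). *Caly* was lower in WT vDG than in dDG (-0.37), and in cKO it was at -0.08, not called. Over all genes 7.73% were higher and 16.1% lower in the WT IP, and 11.8% and 15.7% in the cKO IP.

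The genes whose pattern was most like that of the 3 most abundant receptors were found by Pearson correlation of log2 CPM over all 15 libraries among 10372 genes. The points share depth, genotype, region and fraction, so the values are descriptive. They were *Prpf19*, *Rtn1* and *Ptprn* for *Adra1d* (r of 0.97 each) and *2310035C23Rik*, *Usp48* and *Clcn7* for *Adrb1* (0.89, 0.88 and 0.87). For *Drd5* they were *Tle1*, *Dsp* and *Npy1r* (0.91, 0.90 and 0.90), of which *Dsp* is also in the granule cell marker list.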

How the data were processed

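RNA-seq counts of 15 libraries were analysed, with 19039295 to 30451430 counts on genes per library. Per the submitters' processing notes and the methods, the authors amplified cDNA, trimmed reads, aligned them to mm10 with STAR 2.4.2a, removed duplicates with SAMtools 0.1.19-444 and counted reads on genes with HTSeq. The deposited counts are integers without normalization. Duplicate removal can lower the counts of abundant genes, and intervals or floors from counts cover counting error only. The deposited tables of the authors' DESeq2 comparisons (fold changes, p-values, normalized counts) were not used. Groups came from the sample titles. The sample records give 2 or 3 mice per pool and name cortex for inputs, where titles and methods give DG.

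R 4.3.3 with edgeR 4.0.16 (TMM, filterByExpr, two-sided quasi-likelihood F-test per pair of groups, Benjamini-Hochberg FDR over all genes), limma 3.58.1, DESeq2 1.42.0 and Python 3.11.15 with matplotlib 3.10.9 were used. Calls needed an FDR under 0.1 between genotypes in vDG IP and under 0.05 otherwise. Standard errors were derived from the F statistics. CPM used TMM over all libraries. Members and gene lists were chosen with earlier results of these data known. Named genes were the 9 receptors, the 3 genes most similar to each of the 3 most abundant receptors (mean of at least 5 CPM), and list members called in some comparison or belonging to a list of under 6 genes. A member at 3 counts or fewer in every library of a group was called too low to measure. The fitting code was tested on simulated data. Alternatives were DESeq2, its size factors, library size alone, no filter, a minimum of 10 counts per library, 1 fit over all groups, a replicate block, each library left out, the other FDR threshold, and another gene length.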

Additional observations from a re-analysis of the deposited data

How the results depend on the processing

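The count of receptors called kept within 1.5 times its value under DESeq2's size factors, library size alone, a filter of 10 counts and the replicate block in all 9 tests. For vDG against dDG in cKO, 2 receptors were called, but 1 with DESeq2, 1 with all groups in one fit and 4 at a threshold of 0.1. For cKO against WT in dDG input, 1 was called in place of 0 with no count filter (*Adra2c*). Leaving out single libraries gave 0 to 1 for cKO against WT in vDG input, 1 to 2 for IP against input in either genotype, 2 to 5 for vDG against dDG in WT and 1 to 2 in cKO. Fewer libraries were left in those fits; the cause of the other changes was not tested. A lone library left in a group was assumed to vary like the others. *Adra1a*, uncalled, ranged from -0.17 (sign reversed, without cKO dDG input replicate 2) to 0.69 for cKO against WT in dDG input, and from -0.69 to 0.19 (reversed, without the same library) for vDG against dDG in cKO. Of 36 differences within their own standard error, which the text gives no value for, 33 changed sign under some alternative. The share of all genes called for cKO against WT moved most: in vDG IP from 0.42% to 1.86% with DESeq2 and to 0% without WT replicate 2, without cKO replicate 1 or at a threshold of 0.05.

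The methods take input from the homogenate before the IP, but the labels tie no IP number to an input number. Same-numbered samples were not treated as paired: the correlation of their deviations ran from -0.09 to -0.02 between genotypes, from -0.07 to 0.28 between IP and input in WT (0.15 in cKO), and from 0.02 to 0.29 between regions. With the replicate block, 2 receptors were called between IP and input in each genotype, and *Adra2a* was additionally called for vDG against dDG in cKO (log2 fold change 0.89, FDR = 0.0491). The numbers of the cKO dDG inputs differ between titles, used here, and file names, and the correlations for that comparison were 0.02 and 0.02.

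Depth limits *Drd4* throughout and *Adra1b* in the IP, and the *Drd3* values rest on 3 to 70 counts per library.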
